A study of Mus musculus with 12 samples.

Results

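The mouse Cyp2c genes encode cytochrome P450 enzymes, and 10 of them were followed by name in the liver: Cyp2c29, Cyp2c37, Cyp2c38, Cyp2c39, Cyp2c40, Cyp2c50, Cyp2c54, Cyp2c55, Cyp2c69 and Cyp2c70. All 10 had a row in the count table of 11968 genes, so none was lost to the filter on low values. The table held 3 further Cyp2c genes (Cyp2c23, Cyp2c67 and Cyp2c68), and 3 more (Cyp2c65, Cyp2c66 and Cyp2c53-ps) had values only in the unfiltered table. RNA was sequenced from whole livers of unmodified C57BL/6J mice, an inbred strain, in 4 groups of 3 livers each, every liver from a different mouse. Female and male mice received a defined chow diet alone (female chow, male chow) or that diet with simvastatin (female statin, male statin), and all mice were on their diet for 4 weeks from young adulthood. Simvastatin inhibits HMG-CoA reductase, the rate-setting enzyme of cholesterol synthesis, and was given at 0.1 g per kg, which the labels express per body weight and the methods of the study per food weight.

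Cyp2c enzymes are heme proteins of the endoplasmic reticulum that insert an oxygen atom into drugs, steroids, bile acids and polyunsaturated fatty acids, with electrons passed on by the reductase Por. Several of them are epoxygenases, which turn arachidonic acid into epoxides that soluble epoxide hydrolase (Ephx2) then removes, while Cyp2c70 works in bile acid synthesis and makes the muricholic acids typical of mice. Cyp2c genes are known for transcription in hepatocytes under the nuclear receptors CAR (Nr1i3) and PXR (Nr1i2) and factors such as Hnf4a, and for sex differences set by the pattern of growth hormone release.

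Total counts per liver ranged from 46066381 to 60419223, with a median of 53395820.5, and 3 counts, the most that a count of 0 allows, came to between 0.0497 and 0.0651 CPM (counts scaled to the library total, for counting error only). The methods of the study state a lower mean read depth, and the counts in the deposited files were used. Levels below are CPM normalised by TMM, a trimmed mean of log ratios between livers, whose factors lay between 0.924 and 1.05. All 6 hepatocyte markers were present in the count table in all groups, while the 4 pancreas and 3 kidney markers were not in it, and it held 1 of 5 markers of cholangiocytes, 1 of 4 of lymphocytes, 1 of 3 of adipocytes and 2 of 4 of intestine. In whole liver, fewer cells of a type and less RNA per cell cannot be told apart. A gene was called when its p-value from edgeR's quasi-likelihood test, adjusted over the 11968 genes, was under 0.05.

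All 10 genes lay in one cluster on chromosome 19 of GRCm38, from 39007019 to 40187333, between the genes Hells and Pdlim1. This span of 1180 kb held 15 Cyp2c genes, and the 10 were split evenly with 5 on each strand. Cyp2c55 stood at one end (39007019 to 39042693, plus strand) and Cyp2c70 at the other (40153353 to 40187333, minus strand). Cyp2c40 (39767071 to 39812814) and Cyp2c69 (39842814 to 39886799) were neighbours on the minus strand, and Cyp2c37 (39992424 to 40012243, plus), Cyp2c54 (40037940 to 40073827, minus) and Cyp2c50 (40089688 to 40113950, plus) followed one another in the next stretch. Cyp2c23 lay apart, from 44005022 to 44029208. The longest transcript, by summed exon length, had 9 exons in 8 of the genes and 8 exons in Cyp2c29. In Cyp2c50 it had 4 exons and 1824 bases. That gene had 3 annotated transcripts, whose merged exons came to 2918 bases.

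Near-identical copies can exchange reads, and the genes differed in how far this applied. Of the 50-base stretches in the annotated transcripts of Cyp2c40, 60.3% also occurred in another gene and 36.7% in Cyp2c69, and for Cyp2c69 these shares were 54.3% and 46.5% (in Cyp2c40). The share was 30.1% in Cyp2c37, 25.7% in Cyp2c54 and 18.3% in Cyp2c50, which shared mainly with each other, and 12% in Cyp2c39, 7.45% in Cyp2c38 and 4.25% in Cyp2c29. Only 1.13% of Cyp2c55 and 0% of Cyp2c70 was shared. Cyp2c67 and Cyp2c68 shared 52.8% and 43.3%, mostly with Cyp2c40. Counts of the first 5 genes named and of these 2 are therefore uncertain as to how reads were divided among the copies, and the part of this in their differences was not tested. Cyp2c29 also overlapped the pseudogene Cyp2c53-ps on the same strand, and Cyp2c55 a miRNA gene on the other strand.

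Per length of transcript, Cyp2c29 was the most abundant of the 10 genes in both sexes. On chow it reached 268 ± 77.2 CPM per kb of merged exons in females and 424 ± 79.6 in males (SD, n = 3). In female chow livers the order then ran Cyp2c70 (174), Cyp2c37 (148), Cyp2c69 (115), Cyp2c40 (110), Cyp2c50 (67.5), Cyp2c38 (35.1), Cyp2c54 (16.7), Cyp2c39 (7.23) and Cyp2c55 (1.35 CPM per kb). Neighbours from Cyp2c70 to Cyp2c40 in this order overlapped between livers, and the others were separate. Over the longest transcript in place of merged exons, Cyp2c50 was at 108 in females and 298 CPM per kb in males, and Cyp2c40 (125) stood before Cyp2c69 (119) in females. In male chow livers Cyp2c50 (187), Cyp2c54 (170), Cyp2c70 (134) and Cyp2c37 (119 CPM per kb) followed Cyp2c29, each overlapping the next. Cyp2c38 (21.5) and Cyp2c39 (2.16) stood apart from their neighbours, and Cyp2c55 (1.46), Cyp2c40 (0.785) and Cyp2c69 (0.642 CPM per kb) overlapped at the low end. Cyp2c54 thus took 1.78% of the summed per-length level of the 10 genes in female chow and 16.0% in male chow, and Cyp2c40 with Cyp2c69 took 11.7% and 12.2% in female chow against 0.0741% and 0.0607% in male chow. With statin the female order put Cyp2c69 (271) and Cyp2c37 (249) directly after Cyp2c29 (303 CPM per kb), with overlap between livers at each step down to Cyp2c38, while the male order again began with Cyp2c29, Cyp2c50, Cyp2c54, Cyp2c70 and Cyp2c37. The plot of per-length levels shows this make-up liver by liver.

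**Figure D1:**
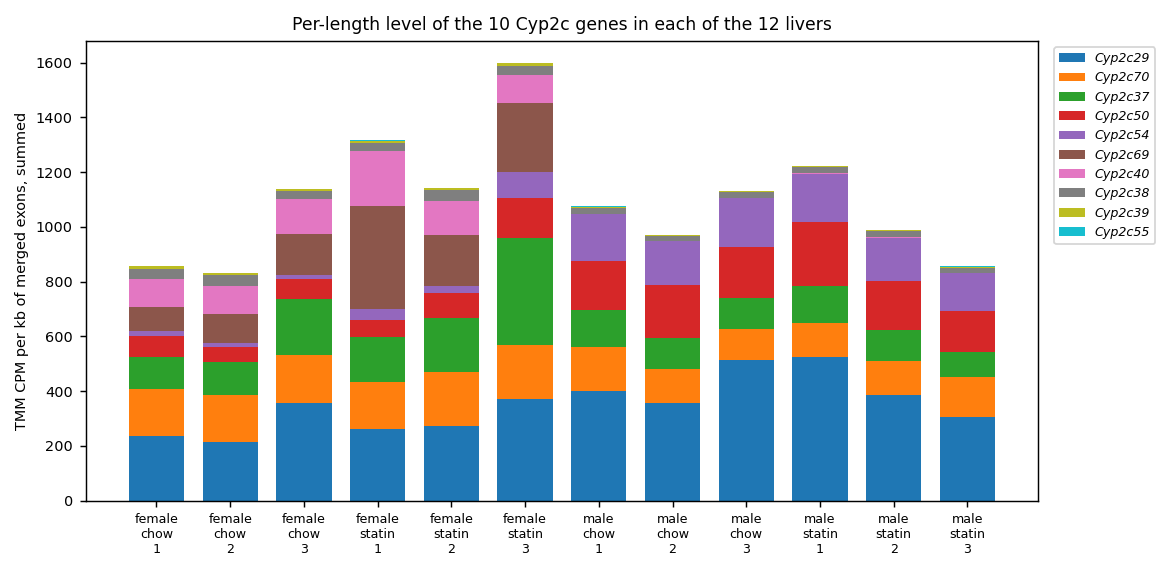
Per-length level (TMM CPM per kb of merged exons) of the 10 genes, stacked for each of the 12 livers. Cyp2c40 and Cyp2c69 form visible blocks only in the 6 female livers, Cyp2c54 is a thin block in female chow (16.7 CPM per kb on average) and a broad one in male chow (170), and female statin replicate 3 has the tallest bar.

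The comparison of female with male chow livers gives the difference between the sexes without the drug. Of the 10 genes, 4 were higher in females (Cyp2c38, Cyp2c39, Cyp2c40 and Cyp2c69) and 2 were lower (Cyp2c50 and Cyp2c54), where 10.4% of all genes were called, 5.96% higher and 4.49% lower. The sexes did not overlap for 8 of the 10, against 37.7% of all genes. The median log2 difference of the 10 genes was 0.34, with a range from -3.34 to 7.48, beside -0.01 over all genes. These genes share a cluster, sequence and reads, so they are not 10 independent observations.

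Cyp2c40 and Cyp2c69 had the widest gap between the sexes among the 10 genes. Cyp2c40, whose product hydroxylates arachidonic acid, was at 203, 206 and 265 TMM CPM in the female chow livers and at 3.01, 1.02 and 0.770 in the male chow livers. Every female liver was far above every male liver, and the log2 difference was 7.14 (standard error 0.57, adjusted p = 7.67e-06, edgeR). Cyp2c69, its close relative, was at 153, 183 and 252 TMM CPM in females and at 2.02, 0.844 and 0.432 in males. The groups were again far apart, with a log2 difference of 7.48 (standard error 0.56, adjusted p = 4.64e-06, edgeR). The male values rested on 41 to 161 reads for Cyp2c40 and 23 to 108 reads for Cyp2c69, above the floor of 3 counts, and male chow replicate 1 was the highest male for both. Without that liver the log2 differences were 7.96 and 8.24. Over 10 other processing settings they ranged from 6.53 to 7.29 (Cyp2c40) and from 6.59 to 7.60 (Cyp2c69). Male chow replicate 3 had 0.750 CPM of Cyp2c40 and 0.421 of Cyp2c69, below the 1 CPM that the filter required in 6 livers. Both genes thus passed the filter only with the female livers.

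The neighbours Cyp2c67 and Cyp2c68 on the same strand moved in opposite directions. Cyp2c68 was higher in female chow livers (336 ± 43.8 against 146 ± 21.2 TMM CPM, SD, n = 3; log2 difference 1.21, standard error 0.19, adjusted p = 0.00181, edgeR) and Cyp2c67 was lower (119 ± 5.22 against 250 ± 29.2; log2 difference -1.07, standard error 0.17, adjusted p = 0.00206). The upstream sequences of these 4 genes are shown because they are nearly the same while the sex differences are not. Each is read 5′ to 3′ on the minus strand of GRCm38.p6 from RefSeq, lined up on the capitals, which mark CAAAGTCCA, a core of the kind that Hnf4a binds, whose first base lies 125 (Cyp2c67), 77 (Cyp2c68), 45 (Cyp2c40) and 75 (Cyp2c69) bases before the RefSeq start. They cover chr19:39649123-39649207, chr19:39741134-39741218, chr19:39812815-39812899 and chr19:39886800-39886884 in the order printed.
Cyp2c67: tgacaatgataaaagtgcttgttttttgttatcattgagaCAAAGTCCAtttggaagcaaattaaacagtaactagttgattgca
Cyp2c68: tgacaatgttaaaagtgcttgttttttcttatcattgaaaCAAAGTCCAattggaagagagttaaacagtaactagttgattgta
Cyp2c40: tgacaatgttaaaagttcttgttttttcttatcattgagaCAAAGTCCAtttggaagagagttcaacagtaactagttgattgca
Cyp2c69: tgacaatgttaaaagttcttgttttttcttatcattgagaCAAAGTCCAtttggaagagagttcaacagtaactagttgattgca
Over these 85 bases Cyp2c40 and Cyp2c69 differed at 0 positions, Cyp2c68 differed from both at 5 and Cyp2c67 from both at 7. Cyp2c67 and Cyp2c68 differed from each other at 8. The part of these bases in the sex differences was not tested.

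Searched on both strands of the RefSeq windows from 250 bases before to 50 after each start, CAAAGTCCA was in 6 of the 14 windows found for Cyp2c genes (Cyp2c65, Cyp2c67, Cyp2c68, Cyp2c40, Cyp2c69 and Cyp2c70) and in 0.475% of 32851 windows. Of the 10 genes, 9 had an entry, and so did 4 of the other Cyp2c genes. TATAAA was in 10 of the 14 against 13.6% of all windows, TGTTTAC, a forkhead core, in 3 against 3.65%, AGGTCA, a nuclear receptor half-site, in 3 against 16.3%, and TTCNNNGAA, a STAT core, in 0 against 8.30%. The windows of related genes share descent, so the matches are not independent, and a match describes letters and not a bound site.

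Cyp2c39 and Cyp2c38, whose RefSeq windows were 82.0% and 83.0% identical for the 2 starts of Cyp2c39, were higher in females by smaller amounts. Cyp2c39, which has been described as a retinoic acid hydroxylase, was at 14.0, 13.7 and 11.7 TMM CPM in female chow and at 4.41, 3.87 and 3.49 in male chow. The sexes did not overlap, at a log2 difference of 1.74 (adjusted p = 0.000364, edgeR; standard error 0.22). Cyp2c38, an epoxygenase, was at 113, 112 and 77.6 TMM CPM in female chow and at 62.7, 57.2 and 65.2 in male chow, where the lowest female liver still lay above the highest male liver. Cyp2c38 was called at a log2 difference of 0.71 (standard error 0.16, adjusted p = 0.0159, edgeR), which was lost without female chow replicate 1 (0.61, adjusted p = 0.0702), female chow replicate 2 (0.62, 0.0735), male chow replicate 1 (0.72, 0.0564) or male chow replicate 2 (0.65, 0.0664).

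Cyp2c54 was lower in females by the widest margin of the 10 genes. This epoxygenase was at 30.7, 29.8 and 29.2 TMM CPM in the female chow livers and at 307, 286 and 317 in the male chow livers. The levels were tight within each sex, and females were 10.1-fold lower (log2 difference -3.34, standard error 0.36, adjusted p = 0.000122, edgeR). Cyp2c50, its neighbour and also an epoxygenase, was at 225, 158 and 208 TMM CPM in female chow and at 517, 568 and 548 in male chow. Females were 2.76-fold lower for Cyp2c50 without overlap (log2 difference -1.47, standard error 0.27, adjusted p = 0.00474, edgeR). Cyp2c37 lies on the other side of Cyp2c54 and overlapped between the sexes, at 212, 218 and 376 TMM CPM in female chow and 246, 203 and 202 in male chow (log2 difference 0.31, 95% interval -0.37 to 0.99).

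Cyp2c37 and Cyp2c50 are shown together because their RefSeq windows, which include 50 bases after the start, were 88.3% identical. Only Cyp2c50 was called between the sexes. The 150 bases before each RefSeq start are read on the plus strand of GRCm38.p6, at chr19:39992274-39992423 and chr19:40089529-40089678, and capitals mark bases that have no match in the other sequence when both are aligned.
Cyp2c37: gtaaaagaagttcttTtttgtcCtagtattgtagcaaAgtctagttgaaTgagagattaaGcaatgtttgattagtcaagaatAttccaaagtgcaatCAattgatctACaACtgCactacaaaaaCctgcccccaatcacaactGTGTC
Cyp2c50: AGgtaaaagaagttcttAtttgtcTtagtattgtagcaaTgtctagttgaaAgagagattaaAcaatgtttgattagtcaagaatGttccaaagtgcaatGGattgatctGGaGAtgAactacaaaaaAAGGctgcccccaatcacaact
Of the 148 aligned columns of this stretch, 131 were identical. The part of the differing bases in the sex differences was not tested.

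The remaining 3 genes were not called between the sexes on chow. Cyp2c29, an epoxygenase and a known target of CAR, was at 717, 656 and 1092 TMM CPM in female chow and at 1229, 1095 and 1567 in male chow, which do not overlap by a narrow margin (log2 difference -0.66, 95% interval -1.20 to -0.11, adjusted p = 0.119, edgeR). It was called without female chow replicate 3 (log2 difference -0.92, adjusted p = 0.0459). Cyp2c70, the muricholic acid enzyme, was at 345, 340 and 346 TMM CPM in female chow and at 319, 246 and 230 in male chow, again without overlap (log2 difference 0.38, 95% interval 0.07 to 0.69, adjusted p = 0.119, edgeR). Cyp2c55, better known from intestine and from induction by drugs, was low throughout, between 1.70 and 3.70 TMM CPM over the chow livers, and the sexes overlapped (log2 difference -0.12, 95% interval -0.87 to 0.63).

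**Figure D2:**
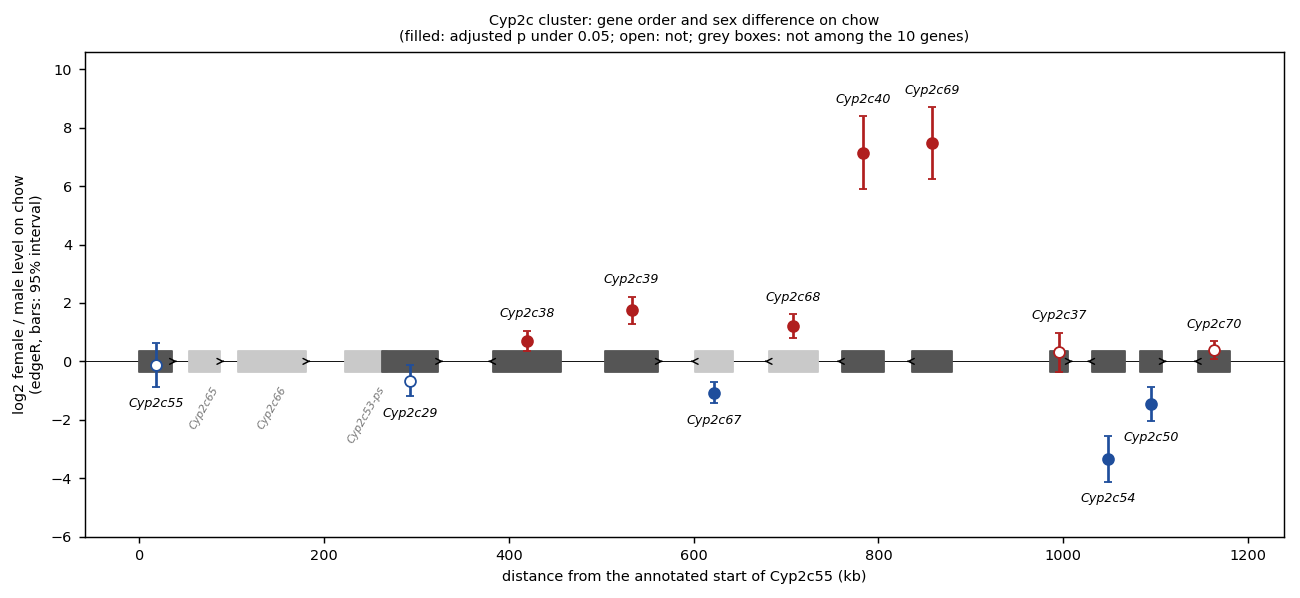
Log2 ratio of female to male level on chow (vertical axis, edgeR, bars 95% intervals) at the middle of each gene along the cluster (horizontal axis, kb from the annotated start of Cyp2c55), with boxes for gene bodies and arrows for strand. The neighbours Cyp2c40 and Cyp2c69 stand at 7.14 and 7.48, and Cyp2c54 at -3.34 and Cyp2c50 at -1.47 lie beyond Cyp2c37, which is at 0.31.

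Outside the count table, the pseudogene Cyp2c53-ps had 20 to 37 reads in male chow livers and 21 to 25 in male statin livers, against 0 in female chow livers and at most 1 in female statin livers. Cyp2c65 had at most 3 reads in any liver and Cyp2c66 had 0. Cyp2c23, an epoxygenase outside the cluster, was lower in female chow livers (113 ± 16.8 against 258 ± 40.2 TMM CPM, SD, n = 3; log2 difference -1.19, standard error 0.34, adjusted p = 0.0444, edgeR), and this call was lost when any of 8 livers was left out, among them all 6 chow livers (log2 difference -1.32 to -1.07). With the replicate number as a block its adjusted p was 0.0869, and with a stricter filter 0.0511.

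Female against male livers on statin asks whether the sex differences stood in treated mice. Cyp2c38, Cyp2c39, Cyp2c40 and Cyp2c69 were higher and Cyp2c54 was lower in females, 5 of the 10 genes, where 6.28% of all genes were called, 4.38% higher and 1.90% lower. The sexes did not overlap for 8 of the 10 (19.6% of all genes). The log2 differences were 6.39 for Cyp2c40, 8.27 for Cyp2c69, 1.81 for Cyp2c39 and 0.72 for Cyp2c38, with adjusted p between 2.10e-06 and 0.0192 in edgeR. For Cyp2c54 the log2 difference was -1.53 (standard error 0.34, adjusted p = 0.0190, edgeR), a gap of 2.89-fold beside 10.1-fold on chow. Without female statin replicate 3 the log2 difference was -2.22 (adjusted p = 2.51e-05). Cyp2c54 lost its call without female statin replicate 1 (-1.37, adjusted p = 0.0529), male statin replicate 1 (-1.44, 0.0528) or male statin replicate 2 (-1.52, 0.0598), and when the fit held the statin groups alone (-1.54, 0.124). Cyp2c38 lost its call there too (adjusted p = 0.0785) and without female statin replicate 2 (0.60, 0.0606), male statin replicate 2 (0.72, 0.0738) or male statin replicate 3 (0.67, 0.0759).

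Cyp2c37 (log2 difference 1.14, adjusted p = 0.0527), Cyp2c70 (0.51, 0.0544) and Cyp2c50 (-0.90, 0.0689) lay just outside the threshold on statin in edgeR, and DESeq2 called all 3 (adjusted p = 0.00531, 0.00887 and 0.00988). Cyp2c37 was called in edgeR without female statin replicate 1 (1.36, adjusted p = 0.0228) or female chow replicate 3 (1.13, 0.0406), and its difference was 0.67 (0.165) without female statin replicate 3. Cyp2c50 was called without female statin replicate 3 (-1.26, 0.00754), and Cyp2c70 without male chow replicate 1 (0.51, 0.0369). Cyp2c29 and Cyp2c55 had log2 differences of -0.42 and -0.09 and overlapped between the sexes. Cyp2c68 was higher and Cyp2c67 lower in females on statin as on chow (1.19 and -0.76, adjusted p = 0.00250 and 0.0193, edgeR). The call of Cyp2c67 was lost without male statin replicate 1 (adjusted p = 0.0611) or replicate 2 (0.0645) and in the fit of the statin groups alone (0.124).

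Markers of other cell types of the liver also differed between the sexes. Summed Kupffer cell markers were at 433 to 529 TMM CPM in female chow and 227 to 346 in male chow, with 2 of 6 called higher, and at 378 to 655 against 226 to 280 on statin, with 4 of 6 called. The 5 stellate cell markers summed to 302 to 367 TMM CPM in female chow and 198 to 214 in male chow (3 called higher), and the 5 endothelial markers to 225 to 245 against 147 to 207 (1 called higher). On statin the sexes overlapped for both, at 242 to 345 against 189 to 250 for the stellate markers (1 called higher) and 188 to 276 against 156 to 209 for the endothelial markers (0 called). The lymphocyte marker in the table, Ptprc, was higher in females on statin (log2 difference 1.06, adjusted p = 0.00961, edgeR) and was not called on chow. Of the 6 hepatocyte markers Apoa1 was lower in female chow livers (log2 difference -0.81, adjusted p = 0.0136, edgeR) and 0 were called on statin. Their sums overlapped on chow (92497 to 125996 in females, 70442 to 120243 in males) and not on statin (110934 to 149096 against 74538 to 86341). Most of the sum was Alb, which held 8.74% of all counts. On statin only 3 of the 6 had a log2 difference above 0, with a median of 0.03 and a range from -0.72 to 0.85. The part of these shifts in the sex differences of the Cyp2c genes was not tested.

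**Figure D3:**
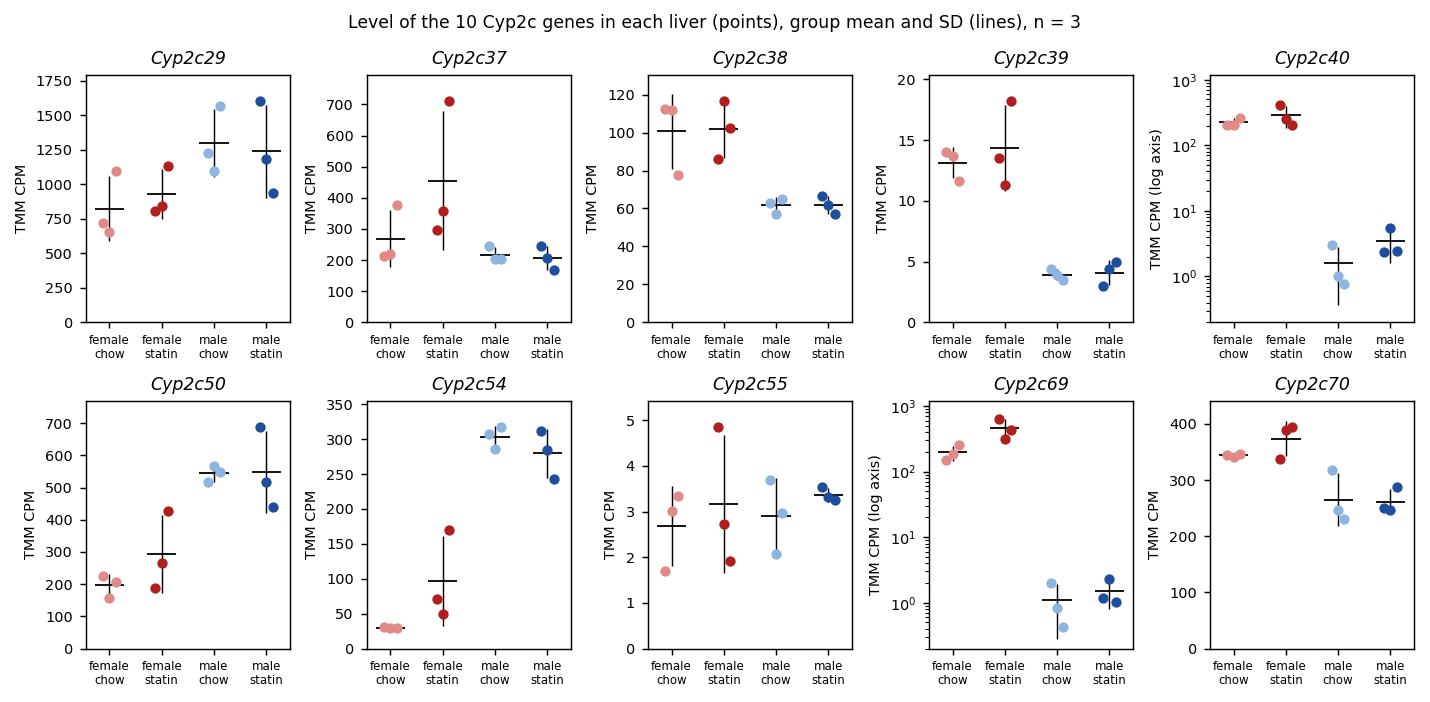
TMM CPM of each of the 10 genes in every liver (points) with group mean and SD (lines, n = 3), on a log axis for Cyp2c40 and Cyp2c69 and a linear axis from 0 for the others. Female and male livers separate widely for Cyp2c40, Cyp2c69 and Cyp2c54, and in female statin the points of Cyp2c37, Cyp2c50 and Cyp2c54 spread upward with replicate 3 on top.

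The statin comparison within females asks what the drug did to these genes in females. None of the 10 genes was called by edgeR, where 0.100% of all genes were called, and 4 had an unadjusted p-value under 0.05 (Cyp2c37, Cyp2c50, Cyp2c54 and Cyp2c69), all with higher means on statin, beside 10.5% of all genes in either direction and 5.93% higher. DESeq2 called 1 of the 10 beside 270 of all genes, and edgeR without the filter called 2 beside 148 of 26304 genes. Limma with a pseudocount of 1 called 0 of the 10 beside 13 of all genes. All 10 log2 differences were above 0, as were 52.8% over all genes, with a median of 0.30 beside 0.01. Statin and chow livers did not overlap for 2 of the 10 (12% of all genes).

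Cyp2c54 had the largest difference with statin among the 10 genes in females. It was at 71.4, 48.9 and 170 TMM CPM in the statin livers and, as given above, near 30 in the chow livers, from 29.2 to 30.7. Every statin liver was above every chow liver, replicate 3 most of all, and all were below the lowest male liver, at 243. The log2 difference was 1.70 (standard error 0.34, 95% interval 0.95 to 2.44, adjusted p = 0.0968, edgeR). The size depended on female statin replicate 3, without which it was 1.02 (adjusted p = 0.120). The call was gained without replicate 1 (1.87, 0.0467) or replicate 2 (2.01, 0.0150). Other tools moved the call more than the size, since DESeq2 called it at 1.69 (adjusted p = 0.000166) and edgeR without the filter at 1.68 (0.000246).

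Cyp2c69 was at 640, 319 and 429 TMM CPM in female statin and 153, 183 and 252 in female chow. The groups did not overlap, with replicate 1 highest, and the log2 difference was 1.24 (standard error 0.42, 95% interval 0.33 to 2.15, adjusted p = 0.300, edgeR). Without the filter it was called (1.23, adjusted p = 0.0367), and over the livers left out in turn it ranged from 0.94 to 1.47. Cyp2c40 was at 409, 252 and 205 TMM CPM in female statin, overlapping the chow livers (log2 difference 0.36, 95% interval -0.58 to 1.30). Replicate 1 was the highest female statin liver for both genes, which share reads.

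Cyp2c37 was at 296, 357 and 711 TMM CPM in female statin, against 212, 218 and 376 in female chow. The values of replicates 1 and 2 fell inside the chow range and that of replicate 3 lay far above it. Its log2 difference was 0.76 (standard error 0.31, 95% interval 0.08 to 1.44, adjusted p = 0.412, edgeR), and 0.30 without female statin replicate 3 or 1.08 without female chow replicate 3. Cyp2c50 was at 189, 265 and 428 TMM CPM in female statin and overlapped chow (log2 difference 0.58, standard error 0.26, adjusted p = 0.472), with 0.22 left without replicate 3. For Cyp2c37, Cyp2c50 and Cyp2c54, neighbours that share reads, replicate 3 was thus the highest female statin liver.

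The other 5 genes overlapped between female statin and chow livers. Their log2 differences were 0.24 for Cyp2c55, 0.17 for Cyp2c29, 0.13 for Cyp2c39, 0.12 for Cyp2c70 and 0.02 for Cyp2c38. The 95% intervals were narrowest for Cyp2c70 (-0.19 to 0.43) and Cyp2c38 (-0.33 to 0.36), so that the upper ends correspond to folds of 1.35 and 1.29. Without female statin replicate 3 Cyp2c39 stood at -0.07, and without replicate 1 Cyp2c55 stood at -0.20. The summed level of the 10 genes was 2014, 1919 and 2662 TMM CPM in female chow and 2854, 2600 and 3595 in female statin, overlapping because female chow replicate 3 was high.

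In males, statin gave 0 called genes among the 10, where 0% of all genes were called by edgeR and 1.96% had an unadjusted p-value under 0.05. DESeq2 also called 0 of the 10 beside 4 of all genes, and limma with a pseudocount of 1 called 0 beside 0. The only gene of the 10 with an unadjusted p-value under 0.05 was Cyp2c40, at 2.32, 5.51 and 2.45 TMM CPM on statin against 3.01, 1.02 and 0.770 on chow. These groups overlapped at a low level (log2 difference 1.11, standard error 0.48, unadjusted p = 0.0405 in edgeR's model), with 0.58 left without male statin replicate 2 and 1.93 without male chow replicate 1. Cyp2c54 was at 312, 284 and 243 TMM CPM in male statin (log2 difference -0.12, 95% interval -0.84 to 0.61), and Cyp2c37, Cyp2c50, Cyp2c29 and Cyp2c70 had differences between -0.07 and 0.01. Of the 10 log2 differences 6 were above 0, as were 51.0% over all genes, and the median was 0.00, beside 0.00. The groups overlapped for all 10 genes, where 7.95% of all genes did not overlap.

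**Figure D4:**
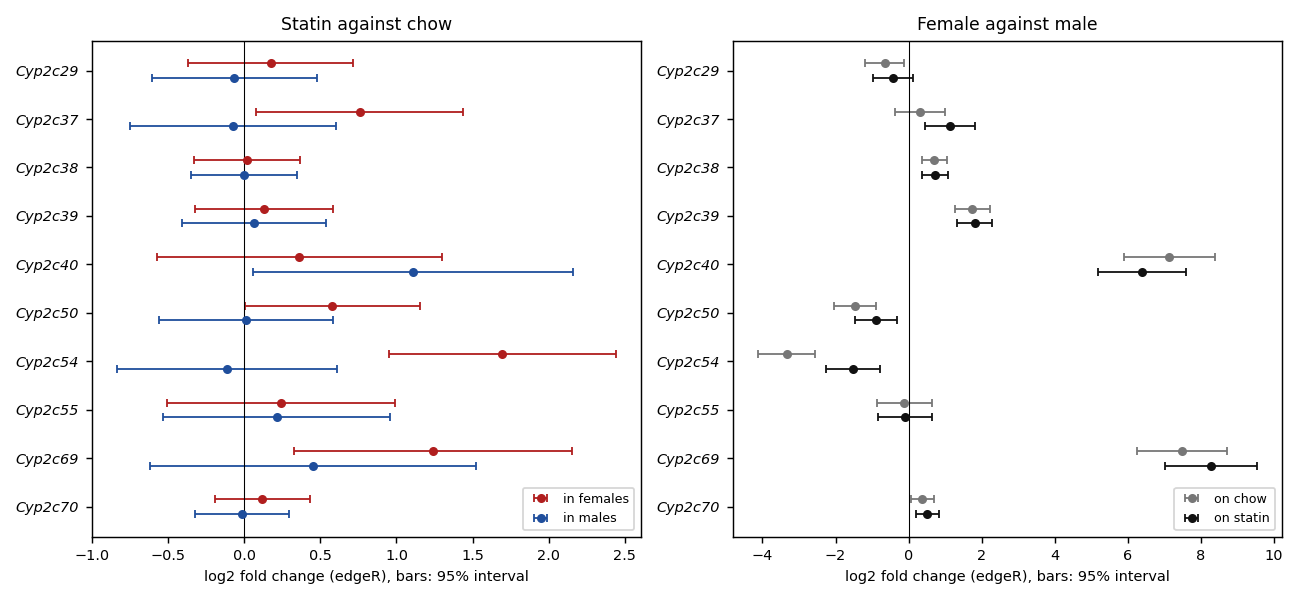
Log2 fold changes from edgeR with 95% intervals for the 10 genes, statin against chow in females and males (left) and female against male on chow and statin (right). In females Cyp2c54 (1.70) and Cyp2c69 (1.24) lie farthest to the right, in males Cyp2c54 is at -0.12, and the sex difference of Cyp2c54 is -3.34 on chow and -1.53 on statin.

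Whether the statin response differed between the sexes was tested as an interaction. It was called for 0 of the 10 genes, where 0% of all genes were called by edgeR and 8.01% had an unadjusted p-value under 0.05, and Cyp2c54 was the only one of the 10 among the latter. Of the 10 differences 9 were above 0, as were 51.0% over all genes. Its response was larger in females by 1.81 on the log2 scale (standard error 0.47, 95% interval 0.78 to 2.84, adjusted p = 0.305, edgeR). DESeq2 called it (1.79, adjusted p = 0.0225), as did edgeR without the filter (1.80, 0.0109), and without female statin replicate 3 it was 1.13. The differences for Cyp2c37 (0.83, 95% interval -0.13 to 1.79), Cyp2c69 (0.79, -0.61 to 2.19) and Cyp2c40 (-0.75, -2.15 to 0.66) had wide intervals, and for Cyp2c70 the interval was -0.30 to 0.57. A response limited to females was therefore not shown for any of the 10 genes by the main test.

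Among the regulators and partners of these enzymes, none was called with statin in females by edgeR. Of 12 receptors and liver factors, Nr1i3 (CAR) had the smallest p-value, at 128 ± 24.2 TMM CPM on chow and 296 ± 147 on statin (SD, n = 3), without overlap (log2 difference 1.21, standard error 0.32, adjusted p = 0.177, edgeR). DESeq2 called it (adjusted p = 0.0114). Its interaction with sex was 1.54 (adjusted p = 0.347, edgeR). Of 14 CAR and PXR targets outside the family, 0 were called and Tsku had the smallest p-value (log2 difference 1.31, adjusted p = 0.153, and 0.00722 with DESeq2). Of 8 P450 partners, 0 were called and Alas1, which makes the first intermediate of heme, had a log2 difference of 1.14 (adjusted p = 0.219, and 0.0315 with DESeq2). Without the filter edgeR called Nr1i3, Tsku and Alas1 (adjusted p = 0.00811, 0.00406 and 0.0207), and with it Nr1i3 was called when female statin replicate 2 was left out (1.53, 0.0221). In males none of these lists had a called gene. Among the targets Cyp3a11 had the smallest p-value in males, at a log2 difference of -0.60.

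Between the sexes on chow, 3 of the 14 CAR and PXR targets were higher in females and 3 lower. Cyp2b13 (log2 difference 9.20, and 5.97 in limma with a pseudocount of 1) and Cyp2b9 (7.35) were higher, and the retinal dehydrogenase Aldh1a1 was lower (-1.49, adjusted p = 0.00407, edgeR). On statin 3 were higher, among them the transporter Slco1a4 (1.75), and 1 lower. The receptor list had 1 lower gene on chow, Foxa1 (-0.54, adjusted p = 0.0386), and on statin Foxa1 was lower (-0.66) and the estrogen receptor Esr1 higher (1.51, adjusted p = 0.0276). Foxa1 lost its call on chow without any single chow liver (adjusted p = 0.0730 to 0.146) or male statin replicate 3 (0.0529), with the stricter filter (0.0504) and with the replicate block (0.0723), and on statin without female statin replicate 1, male statin replicate 1 or male statin replicate 3 (0.0533 to 0.0741). Esr1 lost its call without female statin replicate 2 or 3 or male statin replicate 1 or 2 (0.0726 to 0.114). In the fit of the statin groups alone neither was called. Of 10 genes of the growth hormone axis, 3 were higher in females on chow and 1 lower. The repressor Cux2, known for female-biased expression in liver, was higher by 6.36, Tox by 1.95 and Trim24 by 1.25 (adjusted p from 7.67e-06 to 0.000456, edgeR). With statin the list had 0 called genes in either sex, and Stat5a had the smallest p-value in females (log2 difference 0.67, adjusted p = 0.110, and 0.00318 with DESeq2) and Cux2 in males (2.04, unadjusted p = 0.0232 in edgeR's model). Cux2 in males was at 0.65 without male statin replicate 3 and at 0.80 and 1.38 in limma with pseudocounts of 1 and 0.1.

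Of 10 genes of the epoxygenase pathway outside Cyp2c, 6 were in the count table. Ephx2, which hydrolyses the epoxides, was lower in female chow livers (316 ± 56.2 against 734 ± 42.6 TMM CPM, SD, n = 3; log2 difference -1.22, adjusted p = 0.00408, edgeR), and so was the epoxygenase Cyp2j9 (-0.75, adjusted p = 0.0435). On statin Cyp2j9 was lower in females (-0.95) and the phospholipase Pla2g4a, which releases arachidonic acid, was higher (1.40, adjusted p = 0.0224). Cyp2j9 lost its call on chow without any single chow liver or male statin replicate 2 or 3 (adjusted p = 0.0600 to 0.184), and on statin without any statin liver other than female replicate 1 (0.0573 to 0.0670). Pla2g4a lost its call without female statin replicate 1 or any male statin liver (0.0558 to 0.0791). With library size alone, Cyp2j9 on chow (0.0519) and Pla2g4a on statin (0.0504) were not called. In the fit of the statin groups alone neither was called. None was called with statin in either sex, and Ephx2 had the smallest p-value in females (log2 difference 0.50, adjusted p = 0.435). Of 8 bile acid genes set beside Cyp2c70, 4 were lower in female chow livers and 0 higher, among them Cyp7b1 (-2.81), Cyp7a1, the rate-limiting enzyme of bile acid synthesis (-1.90, adjusted p = 0.0250), and Cyp27a1 (-0.80), while Cyp2c70 itself had a difference of 0.38 that was not called. The call of Cyp7a1 was lost without any single chow liver (adjusted p = 0.0518 to 0.0995), and that of Cyp27a1 without any chow liver other than female replicate 1 (0.0659 to 0.0965). On statin 3 were lower in females, including Nr0b2 (-2.11).

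Markers of position within the liver lobule were read beside the statin groups. The 9 pericentral markers summed to 5034 to 6390 TMM CPM in female chow and 7172 to 9364 in female statin, without overlap, and 10757 to 12491 in male chow and 8959 to 13501 in male statin. None of the 9 was called with statin by edgeR, and 8 had a log2 difference above 0 in females. Most of the sum was Cyp2e1, at 3365 ± 286 TMM CPM in female chow and 5534 ± 1262 in female statin (log2 difference 0.72, adjusted p = 0.211 in edgeR and 0.0188 in DESeq2), which was lower in females than in males on chow (-1.36, adjusted p = 0.00139). The 8 periportal markers summed to 3441 to 5614 TMM CPM in female chow and 4068 to 4251 in female statin, inside the chow range, and 0 were called with statin. None of the markers of other cell types was called with statin in females by edgeR. Statin and chow livers did not overlap for the lymphocyte marker Ptprc (log2 difference 0.48, adjusted p = 0.432) or the adipocyte marker Cidec (1.24, adjusted p = 0.448), while the sums of the Kupffer, stellate and endothelial markers overlapped. On chow 2 of the periportal markers, Ctsc and Sds, were higher in females and Cyp2f2 was lower (-1.24). The call of Sds was lost without any single chow liver (adjusted p = 0.0509 to 0.126), with library size alone (0.0512) and with the replicate block (0.0669). The part of these shifts in the Cyp2c values was not tested.

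Over the 12 livers, the gene outside the family most like a member, by Pearson's r of log2(TMM CPM + 1) among 7630 genes averaging 10 CPM or more, was named as a description, since sex and library are shared by all points. Among the female-high genes these were Cyp3a16 for Cyp2c69 (r = 0.992), Cyp2a4 for Cyp2c40 (0.990) and Fam25c for Cyp2c38 (0.959). The male-high genes were nearest to Adh4 for Cyp2c54 (r = 0.983) and Ulk2 for Cyp2c50 (0.969). Cyp2c37 was nearest to Rasal2 (0.958), Cyp2c29 to Cyp2f2 (0.937) and Cyp2c70 to Fam84b (0.921).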

How the data were processed

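Strand-specific poly(A) libraries were read as paired 50-base ends and aligned to GRCm38. The submitters' processing notes name STAR 2.4.1a, HTSeq and edgeR 3.28.1, without their roles. The authors deposited raw counts of 11968 genes, and CPM values of 48526 genes scaled to each library's total. Although that count table was described as normalised, all of its values were whole reads and 0 differed from the reads recovered from CPM (100% whole within 0.02). It held exactly those genes whose CPM exceeded 1 in 6 or more livers. Of its genes, 99.8% had a symbol. No liver was a copy of another (lowest chi-square per degree of freedom 44.4).

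All 12 livers were fitted in edgeR 4.0.16 (quasi-likelihood, TMM, 4 groups, no covariate; common dispersion 0.0380, prior degrees of freedom 4.14), two-sided, with Benjamini-Hochberg adjustment. A standard error is the absolute log2 difference divided by the root of F. The 5 comparisons shared samples: both statin comparisons and both sex comparisons use the same livers. Groups came from the titles in the labels. The treatment label of the chow samples carries a diet formulation number that the methods of the study give to the statin diet, and the titles were followed. Cages and extraction days are not stated in the sources used here. DESeq2 1.42.0, limma 3.58.1 on log2(CPM + 1) and on log2(CPM + 0.1), DESeq2's size factors, library size alone, no filter, a stricter filter (mean CPM of at least 10), fits of the compared groups alone, a replicate block, omission of the 10 highest genes and of each liver in turn were tried. On simulated counts with 200 of 11968 genes changed between female statin and chow, edgeR recovered 198 at a log2 change of 2 (12 false calls) and 122 at 1 (3 false), DESeq2 199 and 152 (33 and 30 false). These counts were drawn independently per gene with edgeR's dispersions and without a difference between the sexes.

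Positions, lengths and shared 50-base stretches are from GENCODE vM21 (GRCm38); 2 of the 10 identifiers matched after their version was dropped. Promoters are from RefSeq (GRCm38.p6). R 4.3.3, Python 3.11.15, pandas 2.3.3, Biopython 1.88 and matplotlib 3.10.9 were used. Named genes were the 10 members, the other Cyp2c genes and, per list and comparison, up to 3 called genes by p-value or else the gene with the smallest; not all are printed. The members and lists were chosen with earlier results of these data known. The most alike genes of Cyp2c39 and Cyp2c55 are not reported here.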

Additional observations from a re-analysis of the deposited data

Results flagged for a closer look

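Every female statin liver was above every female chow liver for Cyp7a1 (142 to 621 against 44.6 to 65.0 TMM CPM), while every male statin liver was below every male chow liver (99.6 to 164 against 176 to 257). The statin response differed between the sexes by 3.11 on the log2 scale, which edgeR did not call (adjusted p = 0.240) and DESeq2 did (3.09, adjusted p = 0.0210). Without female statin replicate 3 it was 2.07.

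Alad, an enzyme of heme synthesis that P450 proteins need, showed the same opposite movement, at 113 to 177 against 102 to 109 TMM CPM in females and 118 to 132 against 139 to 153 in males. The difference of responses was 0.62 on the log2 scale (adjusted p = 0.470, edgeR), which was not called, and 0.40 without female statin replicate 3. Cyp7a1 and Alad were both picked because their statin responses differed between the sexes in these same values. Their opposite movement therefore follows from the choice and is not separate evidence of a difference. The shares of all genes whose statin and chow livers did not overlap are given above for each sex.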

How the results depend on the processing

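The counts of called genes moved with tool and filter. With statin in females 12 genes became 270 with DESeq2, 148 without the filter, and 5 with the stricter filter or the replicate block, and 0 in a fit of the 2 groups alone; leaving out single livers gave 0 (without female chow replicate 2) to 75 (without female statin replicate 2), and 0 to 1 of the 10 Cyp2c genes. Members called became 1 with DESeq2 and 2 without the filter. In males DESeq2 called 4 genes and leaving out livers 0. The interaction gave 130 genes and 1 member with DESeq2, 103 and 1 without the filter, and 0 to 14 genes and 0 members without single livers. Between the sexes on chow, 1250 genes became 1946 with DESeq2, 771 with the stricter filter and 2151 in a fit of both groups alone, and 635 (without male chow replicate 1) to 1586 without single livers, with 5 to 7 members. On statin 751 genes became 1284 (8 members), 357 and 292 (3 members) under the same 3 settings, and 378 (without male statin replicate 2) to 743 without single livers, with 3 to 6 members. Without the filter 1021 genes and 7 members were called there, and 758 genes and 6 members in limma with a pseudocount of 1. DESeq2 made more false calls than edgeR on simulated counts, which were drawn with edgeR's own dispersions. They held no sex difference and more changed genes than edgeR called with statin, so they cannot decide which tool's calls hold here.

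Cyp2c40, Cyp2c69, Cyp2c39 and, on chow, Cyp2c54 and Cyp2c50 kept their sex calls under every setting in which they were tested. Differences that changed sign under another tool, scaling or filter were as follows. With statin in females Cyp2c38 was -0.0260 with library size alone. In males Cyp2c38 was -0.000412 and -0.000429 in the limma fits (pseudocount 1 and 0.1), -0.00249 without the filter and -0.00561 with the replicate block, Cyp2c50 was -0.0149 in both limma fits and Cyp2c23 was -0.105 and -0.106. The interaction of Cyp2c38 was -0.00238 with DESeq2's size factors, -0.00243 with DESeq2 and -0.0435 with library size alone, and that of Cyp2c55 was -0.0180 with library size alone, -0.0378 and -0.0602 with limma and -0.0632 with the replicate block.

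Without single livers, signs changed within these ranges. In females on statin they were -0.13 to 0.13 (Cyp2c38), -0.0663 to 0.271 (Cyp2c39) and -0.20 to 0.51 (Cyp2c55). In males they were -0.29 to 0.10 (Cyp2c29), -0.211 to 0.0534 (Cyp2c37), -0.0577 to 0.0547 (Cyp2c38), -0.10 to 0.25 (Cyp2c39), -0.19 to 0.14 (Cyp2c50), -0.11 to 0.14 (Cyp2c70) and -0.55 to 0.30 (Cyp2c23). For the interaction they were -0.14 to 0.12 (Cyp2c38), -0.14 to 0.22 (Cyp2c39), -0.42 to 0.29 (Cyp2c55), -0.0175 to 0.228 (Cyp2c70) and -0.16 to 0.11 (Cyp2c68). Between the sexes they were -0.0183 to 0.445 (Cyp2c37) and -0.31 to 0.12 (Cyp2c55) on chow and -0.54 to 0.17 (Cyp2c55) on statin. The cause was not tested.

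Replicate numbers are shared only as numbers, since same-numbered livers are different mice. Over 18 same-numbered pairs the mean correlation of deviations was -0.109 (-0.745 to 0.673), against 0.0577 for other pairs (-0.678 to 0.754). Single pairs of livers from different groups thus correlated strongly in both directions. With the number as a block 5, 0, 0, 901 and 570 genes were called with statin in females, in males, in the interaction and between the sexes on chow and statin, and 0, 0, 0, 6 and 5 of the 10 Cyp2c genes.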
